A study of Mus musculus with 6 samples.

Results

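Mitochondrial fatty acid oxidation is represented here by 35 genes, chosen by name: the enzymes that activate, carry and shorten fatty acids, their electron carriers and 3 nuclear regulators. Probes were matched by the gene symbols and synonyms in the scanner tables, and the brightest probe above background stood for its gene. Of the 35 genes, 33 had a probe and 25 passed a detection limit (a detection p-value under 0.05, here called above background, on 3 or more arrays); these 25 are compared below, among 11940 genes tested in all. The pathway was picked because 1 of its genes, Acadm, had been lower in the knockout in an earlier look at these arrays. The values of Acadm are therefore a description without a test, and the question was whether the other genes lay lower as well.

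Luminal uterine epithelium, the cell layer that faces the embryo at attachment, was taken from female mice at 3.5 days post coitum. The 3 CKO samples (D, E and F) came from mice with Alk3 flox/flox and Pgr cre/+ alleles. In these mice Cre, made from the progesterone receptor gene, removes exon 2 of Alk3 (Bmpr1a), a receptor for bone morphogenetic proteins. The 3 Control samples (A, B and C) are labelled only as control, with no alleles stated, and the ages of the mice are not stated either. All were on a hybrid of C57BL/6J and 129S5/SvEvBrd. Pgr is active in uterine epithelium, stroma and muscle, so Cre acts beyond the luminal epithelium. Each sample was 1 array of a single Illumina bead chip, with Control at positions A to C and CKO at D to F, so that position and group cannot be told apart. RNA came from frozen, homogenised uterine tissue, and how the epithelium was isolated is not stated. Nothing in the labels says that the samples came from separate animals, so p-values measure only the spread between these samples.

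Fatty acids are first joined to coenzyme A by the acyl-CoA synthetases and carried into the mitochondrion as carnitine esters by the Cpt enzymes. There they are shortened in rounds of dehydrogenation, hydration, a second dehydrogenation and cleavage by a thiolase, with electrons passed through the flavoproteins Etfa, Etfb and Etfdh to the respiratory chain. The acyl-CoA dehydrogenases divide the first step by chain length, and Acadm takes medium chains. PPAR receptors and their coactivator Ppargc1a are the best known inducers of these genes. Ehhadh and Acaa1a belong to the peroxisomal pathway, and Acsl3 and Acsl4 also serve lipid synthesis, so not every gene on the list is strictly mitochondrial.

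Bmpr1a, the targeted gene, gave log2 signals of 9.26, 9.35 and 8.97 in Control and 8.86, 8.25 and 8.67 in CKO. By this probe CKO lay wholly below Control, by -0.60 (SE 0.22, limma's adjusted p 0.976). A dimmer probe differed by -0.51, but its groups overlapped. It gave 6.61, 7.10 and 7.02 in Control and 5.61, 6.88 and 6.71 in CKO, with array D far the lowest. The position of these probes relative to exon 2 was not tested.

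The upstream sequences of Acadm and Hadhb are shown since these genes lay lower on every CKO array, the first as the gene behind the choice of pathway and the second among the genes that had no part in it. Both are the 250 bases before the RefSeq start on GRCm38.p6, Acadm on the minus strand at chr3:153944644-153944893 and Hadhb on the plus strand at chr5:30155003-30155252.
Acadm: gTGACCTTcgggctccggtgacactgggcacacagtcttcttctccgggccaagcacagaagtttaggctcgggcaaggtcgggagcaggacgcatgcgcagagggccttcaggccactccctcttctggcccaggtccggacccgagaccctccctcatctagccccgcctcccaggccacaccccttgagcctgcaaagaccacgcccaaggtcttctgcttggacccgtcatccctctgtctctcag
Hadhb: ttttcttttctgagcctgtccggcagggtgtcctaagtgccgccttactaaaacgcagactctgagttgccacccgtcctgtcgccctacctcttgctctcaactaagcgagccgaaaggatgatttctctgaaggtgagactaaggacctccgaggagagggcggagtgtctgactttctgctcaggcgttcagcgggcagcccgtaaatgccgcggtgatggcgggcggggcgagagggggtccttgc
Capitals mark a match to AAGGTCA, the site of estrogen-related receptors, here on the opposite strand and starting 249 bases before the Acadm start. It contains AGGTCA, the half-site of many nuclear receptors. Both strands were searched. AGGTCA was in the windows of 4 of the 29 listed genes with a RefSeq promoter (Acadm, Acadvl, Echs1 and Cpt1a), which is 13.8%, as in all 27025 promoters (13.8%). AAGGTCA was in 1 of 29 (Acadm, 3.45%), against 4.05% of all promoters. The PPAR direct repeat, AGGTCANAGGTCA, was in 0 of 29 and in 0.037% of all promoters. Hadha and Hadhb, the subunits of the trifunctional protein, start 273 bases apart on opposite strands, so the Hadhb window lies between them; Hadha was not analysed here.

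Acadm, the medium-chain acyl-CoA dehydrogenase, was measured at raw signals of 2163.4, 1942.0 and 1789.0 in Control (A, B, C). In CKO (D, E, F) the raw signals were 969.5, 1275.0 and 1031.8. After normalisation its log2 signals were 10.91, 10.76 and 10.79 in Control and 9.94, 10.28 and 10.01 in CKO. The groups were 0.49 apart at their nearest arrays, Control B and CKO E, and CKO was the lower throughout. The means were 10.82 ± 0.08 (SD, n = 3) in Control and 10.08 ± 0.18 (SD, n = 3) in CKO. The log2 difference, CKO minus Control, was -0.75, a signal 40.4% lower, and it ran from -0.85 to -0.68 with single arrays left out. In all 16 alternative settings the groups stayed apart, which adds no support, since Acadm was picked for being lower on these same arrays. The gene has a single probe on this chip. It lies at chr3:153922353-153944643 on GRCm38.p6.

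Most of the other genes also lay lower in CKO, but by less, and none passed a test. Of the 24 measured besides Acadm, 18 lay lower in CKO and 6 higher, that is 75% lower, where 51.7% of all genes tested lay lower. Their median log2 difference was -0.13, against -0.01 for all genes. By limma's adjusted p 0 of 24 passed as lower, as did 0% of all genes, and 0 passed as higher, as did 0.0168% of all genes. At an unadjusted p under 0.05, 0 of the 24 were lower and 0 higher, where 2% and 2.71% of all genes were. CKO lay wholly below Control in 2 of the 24 genes, Hadhb and Acaa2, or 8.33%, beside 5.01% of all genes, and wholly above in 0, beside 5.64%. The shares of genes without overlap lie near those of all genes; the share lower, 75%, lies above that of all genes, which was not tested. With single arrays left out, 14 of the 24 lay lower without D (58.3%) and 15 without B or without C (62.5%). The number was 17 without A (70.8%), and 19 without E or without F (79.2%). With median scaling in place of quantile normalisation, 21 of the 24 lay lower and 4 lay wholly below Control. That scaling moved the median of all genes to -0.08. All genes shifted as well under that scaling, with 8.76% wholly below and 3.61% wholly above. The 95% confidence interval of the difference contained 0 for each of the 24. In bulk samples a smaller share of cells of a type and less RNA per cell cannot be told apart.

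**Figure D1:**
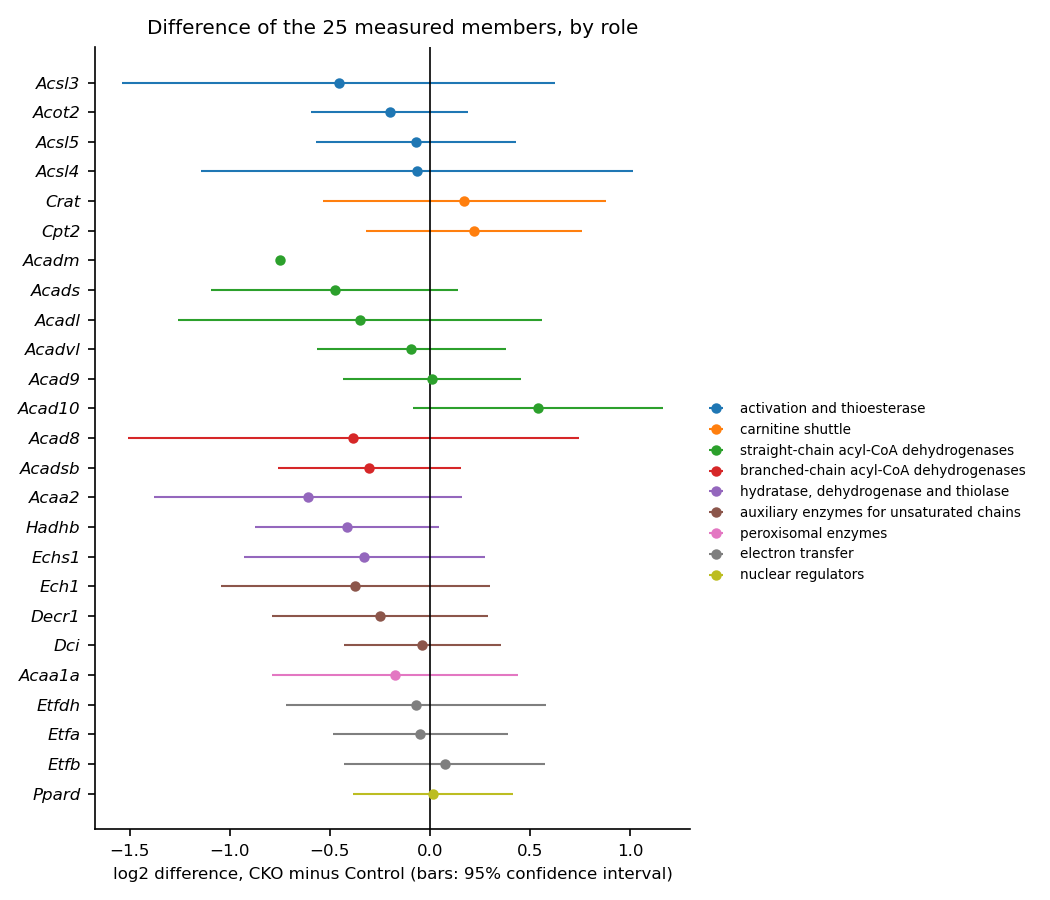
Log2 difference of CKO minus Control for the 25 measured genes, coloured by role, with bars for the 95% confidence interval from limma (n = 3 arrays a group). Acadm chose the pathway and is drawn without an interval; the intervals of the other 24 genes all contain 0, and 18 of these genes lie left of 0.

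**Figure D2:**
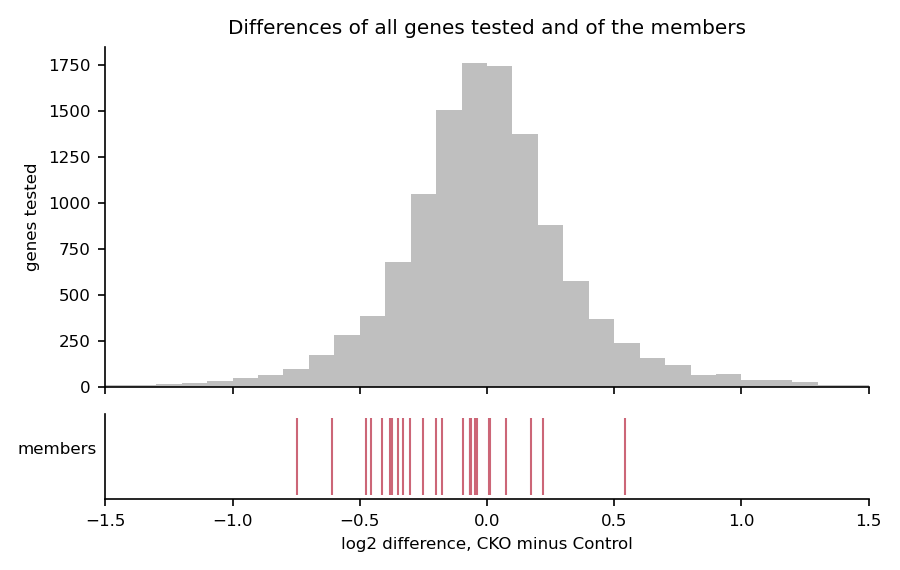
Histogram of the log2 difference of all 11940 genes tested, in bins of 0.1 and shown from -1.5 to 1.5 only, above a strip with 1 line for each of the 25 genes of the pathway. The 25 lines run from -0.75 to 0.54 with a median of -0.18, within the spread of all genes.

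The genes of the hydration and thiolase steps had the lowest median of any role with several genes, -0.41 over 3 genes. Hadhb, the beta subunit of the trifunctional protein and its thiolase, gave log2 signals of 10.79, 10.44 and 10.30 in Control and 9.95, 10.16 and 10.19 in CKO. Its groups did not overlap, although the highest CKO and the lowest Control array were only 0.11 apart. Its means were 10.51 ± 0.25 (SD, n = 3) in Control and 10.10 ± 0.13 (SD, n = 3) in CKO, a log2 difference of -0.41 with an SE of 0.19 (95% confidence interval -0.87 to 0.04; limma's adjusted p 0.976). With single arrays left out the difference ran from -0.52 without C to -0.28 without A.

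Acaa2, the mitochondrial thiolase, gave log2 signals of 8.12, 8.04 and 8.29 in Control and 6.81, 7.86 and 7.94 in CKO. The groups did not overlap, but CKO array D lay far below E and F. The difference of -0.61 had an SE of 0.32 (95% confidence interval -1.38 to 0.16; limma's adjusted p 0.976). It was -0.25 without D and -0.81 without F. Acaa2 had 4 probes above background, all lower in CKO by 0.41 to 0.74 on the log2 scale, and 3 of them had groups that did not overlap. Echs1, the short-chain enoyl-CoA hydratase, differed by -0.33 (SE 0.25) with overlapping groups, and by -0.14 without D and -0.20 without C. Its other, dimmer probe differed by 0.55, so the probes of this gene disagree.

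**Figure D3:**
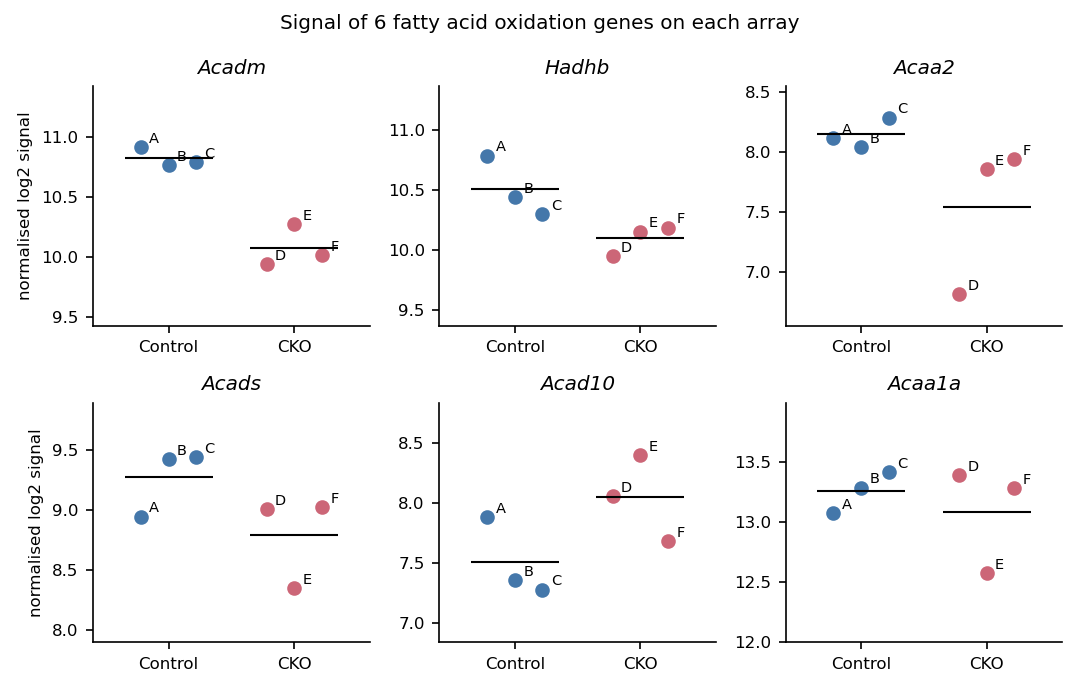
Normalised log2 signal on each array for Acadm, Hadhb, Acaa2, Acads, Acad10 and Acaa1a, with array letters and a line at each group mean (n = 3); every panel spans 2 log2 units. CKO points lie wholly below Control for Acadm, Hadhb and Acaa2, and overlap with Control for the others.

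Among the acyl-CoA dehydrogenases the differences went both ways. Acads, for short chains, differed by -0.48 (SE 0.26) with Control A below CKO D and F. It was -0.64 without A and -0.25 without E. A dimmer Acads probe differed by -0.57, with CKO wholly below Control. Acadl, for long chains, differed by -0.35 (SE 0.38). Its log2 signal was 6.33 on D, 7.80 and 7.55 on the other CKO arrays, and 7.52 to 7.63 in Control. Without D the difference was 0.097. Acadvl, for very long chains, differed by -0.09 (SE 0.20) by the brighter probe and by 0.31 by the other, whose CKO arrays lay wholly above Control. Acad9, which also helps assemble respiratory complex I, differed by 0.01 (SE 0.19) and changed sign with median scaling and cyclic loess.

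Acad10, a relative of these dehydrogenases, had the highest difference of the 25 genes. Its log2 signals were 7.88, 7.35 and 7.28 in Control and 8.06, 8.40 and 7.68 in CKO. Control A lay above CKO F, so the groups overlapped. The difference was 0.54 (SE 0.26; 95% confidence interval -0.08 to 1.17; limma's adjusted p 0.976), and it ran from 0.37 without E to 0.73 without A. A further probe differed by 0.52 with CKO wholly above Control. The branched-chain dehydrogenases Acad8 and Acadsb, which act in valine and isoleucine breakdown, differed by -0.38 (SE 0.47) and -0.30 (SE 0.19), both with overlap. Acadsb was -0.18 without E and -0.049 with array weights. For Acad8 array D was again far below the rest, at 6.16 against 7.54 to 8.01 elsewhere, and without D the difference was 0.17.

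The measured genes of activation lay lower and those of the carnitine shuttle higher, all with overlapping groups. All 4 measured genes of activation and thioester cleavage were lower, from -0.46 for Acsl3 (SE 0.45) to -0.06 for Acsl4 (SE 0.45), with Acot2 at -0.20 (SE 0.16) and Acsl5 at -0.07 (SE 0.21). Acsl3 ranged from 7.11 on Control A to 8.99 on Control C, more than CKO did (7.43 to 7.78), and its difference was 0.017 without C. Acsl4 was highest on CKO array E, 10.39, and lowest on CKO array D, 8.82, so CKO spanned Control. Cpt2, the inner membrane carnitine palmitoyltransferase, differed by 0.22 (SE 0.23), but by only 0.032 without C; its 3 probes were all higher, by 0.22 to 0.58. Crat, carnitine acetyltransferase, differed by 0.17 (SE 0.30), but by -0.14 without D. Cpt1a and Cpt1b, which encode the rate-limiting step of entry, were not above background on enough arrays to be compared.

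The auxiliary enzymes for unsaturated chains were lower, all with overlapping groups. Ech1 differed by -0.37 (SE 0.28), Decr1 by -0.25 (SE 0.22) and Dci, now Eci1, by -0.04 (SE 0.16). For Ech1 and Decr1 array E was the lowest, and without E the differences were -0.12 and -0.071. The peroxisomal thiolase Acaa1a was also lowest on E, and differed by -0.18 (SE 0.26) with all arrays and by 0.077 without E. The electron carriers Etfa, Etfb and Etfdh differed by -0.05, 0.07 and -0.07 (SE 0.18 to 0.27), and Etfb was -0.011 with median scaling. Ppard, the only PPAR receptor of the list above background, differed by 0.01 (SE 0.17; 95% confidence interval -0.39 to 0.41) and by -0.063 with median scaling.

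**Figure D4:**
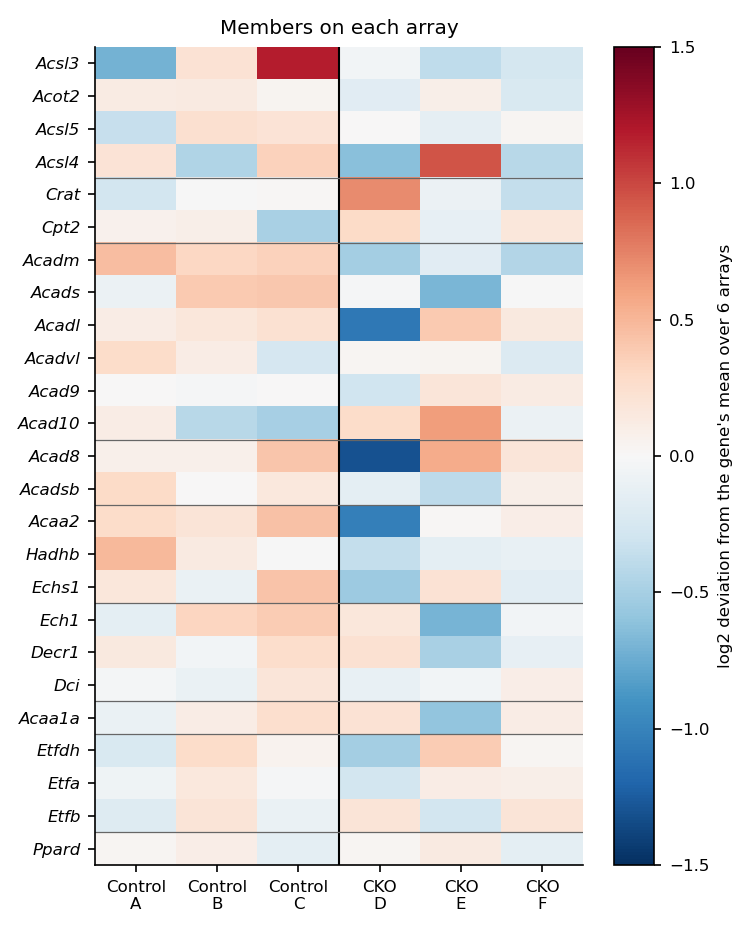
Deviation of each measured gene from its own mean over the 6 arrays (log2, red above and blue below), with genes in rows grouped by role and arrays in columns. Array D is the lowest for 11 of the 25 genes, Acadm among them, and array E for 6. Acadm, which chose the pathway, is blue on all 3 CKO arrays.

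The arrays of the CKO group differed in which genes were low. Array D was the lowest of the 6 for 11 of the 25 genes, or 44.0%, while it was the lowest for 17.6% of all genes tested. Acadm, whose low CKO values chose the pathway, is among the 11 and adds no support. The others include Acadl, Acad8, Acaa2 and Echs1. Array E was the lowest for 6 genes and the highest for 7, and it was the lowest for 31.1% of all genes. The median deviation of the 25 genes from their own means was 0.06 on A, 0.12 on B and 0.18 on C, all Control. It was -0.11 on D, -0.04 on E and -0.01 on F. Without Acadm, whose low CKO values chose the pathway, it was 0.04, 0.12 and 0.17 on A, B and C, and -0.077, -0.012 and 0.0076 on D, E and F. Besides Acadm, CKO lay wholly below Control for 2 of the 24 genes with all arrays (8.33%, beside 5.01% of all genes). Leaving out A gave 6 (25%, beside 11.3%), and leaving out D gave 3 (12.5%, beside 13.5%). The number was 3 without B or without F (12.5%, beside 7.75% and 10.4%). It was 4 without C or without E (16.7%, beside 8.83% and 8.44%). The median difference of the 25 genes was -0.18 with all arrays, -0.097 without C and -0.23 without A.

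Probes bore on how firmly a direction can be read. Of the 25 genes, 14 had several probes above background. In 6 of them all probes were lower in CKO (Acaa2, Acad8, Acadl, Acads, Acsl4 and Etfa), in 3 all were higher (Acad10, Acad9 and Cpt2), and in 5 the probes disagreed (Acadvl, Acsl5, Crat, Echs1 and Etfb). Besides the Acadm probe, 44 probes of these genes were above background. Of these 31 were lower, or 70.5%, beside 52.5% of all 17291 probes kept. CKO lay wholly below Control for 5, or 11.4%, beside 4.94%, and wholly above for 2, or 4.55%, beside 5.4%. Of the 5 wholly below, 3 were probes of Acaa2, and the others were of Hadhb and Acads. Probes of the same gene are not separate observations, so these shares do not count genes.

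**Figure D5:**
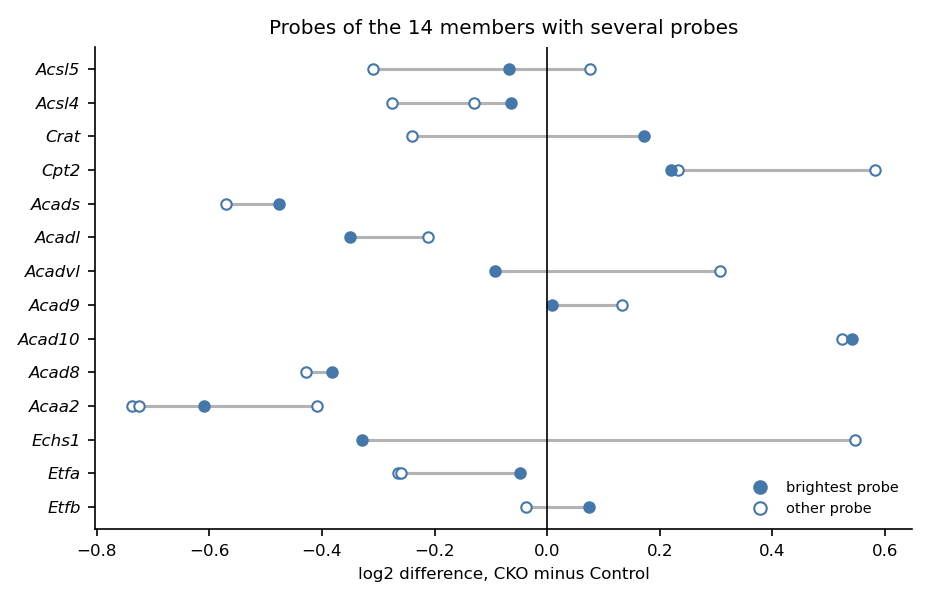
Log2 difference of CKO minus Control for each probe of the 14 genes with several probes above background; filled points are the brightest probe and open points the others. The 4 Acaa2 probes lie between -0.74 and -0.41, and the 2 Echs1 probes fall on both sides of 0.

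The remaining 10 genes could not be compared. Acad11 and Hadha were not analysed here. Acat1, Cpt1a, Ehhadh, Hadh and Ppara were not above background on any array by the probes that carry their names, and Acsl1, Cpt1b and Ppargc1a were so on 1 array each. A probe under the older symbol Hadhsc, traced to Hadh by its accession, was above background on 2 arrays. All 25 genes compared were above background on all 6 arrays, so none stood near the limit of 3 arrays.

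Neighbouring pathways were summarised from lists drawn up by function. No gene of these lists passed by limma's adjusted p. Of 21 further genes of fatty acid import and oxidation, 14 were lower and 7 higher (median -0.09); 0 were lower and 2 higher at an unadjusted p under 0.05, where 2% and 2.71% of all genes were. The median of this list was -0.053 without D and -0.24 without F. Slc22a5, which imports carnitine into the cell, was the 1 gene of this list whose groups did not overlap. It lay wholly above, which is 4.76% of the list, beside 5.64% of all genes. Its log2 signals were 10.58, 10.43 and 9.55 in Control and 11.22, 11.97 and 11.23 in CKO, a difference of 1.29 (SE 0.35; limma's adjusted p 0.976), and its 3 probes were all higher, by 0.96 to 1.67. Acacb, whose product malonyl-CoA blocks fatty acid entry into mitochondria, is named after its values were seen. It differed by 1.47 (SE 0.48) with overlap of 1 array, and was above background on 2 Control arrays. Its second probe, below background on all arrays, differed by -0.0049.

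Peroxisomal oxidation had 8 of 13 genes lower (median -0.12) and PPAR targets and ketone metabolism 8 of 15 (median -0.06). In the latter list Ppargc1b, a coactivator of mitochondrial genes, differed by 0.79 (SE 0.35), from 0.46 to 1.03 with single arrays left out. CKO lay wholly above Control for this gene only, or 6.67% of the list, beside 5.64% of all genes. Ppargc1b was above background on 2 Control arrays. Fatty acid synthesis had 6 of 14 lower and 8 higher (median 0.11). In it CKO lay wholly above Control for 3 genes, or 21.4%, beside 5.64% of all genes, and wholly below for 1, or 7.14%, beside 5.01%. The latter was Elovl5, a fatty acid elongase (-0.10, SE 0.15), named outside the rule for named genes after its values were seen. The 3 were Fasn, fatty acid synthase (0.53, SE 0.18), Srebf1, a regulator of lipid synthesis (0.44, SE 0.17), and Slc25a1. Slc25a1, the mitochondrial citrate exporter, differed by 0.44 (SE 0.23), from 0.24 to 0.55 with single arrays left out. Fasn and Srebf1 were dim, with log2 means of 5.46 and 5.66 in Control. Their differences fell to 0.25 and 0.22 in other settings with all arrays. With single arrays left out the median of this list ran from -0.077 without E to 0.21 without F, so that its sign was not kept; it was also negative with the strict filter (-0.029) and array weights (-0.098). Srebf1 has a second probe, below background on all arrays, that differed by 0.0094. Branched-chain amino acid breakdown had 10 of 15 lower (median -0.06). Aldh6a1, of valine breakdown, was at -0.78 (SE 0.37), from -1.03 to -0.39 with single arrays left out. It alone lay wholly below Control, or 6.67% of the list, beside 5.01% of all genes. General mitochondrial genes had 8 of 20 lower and 12 higher (median 0.04). Polg, the mitochondrial DNA polymerase, was at 0.45 (SE 0.18) and Hspe1, a chaperone, at 0.39 (SE 0.17). Both lay wholly above Control, or 10% of the list, beside 5.64% of all genes.

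Pgr, whose locus carries Cre, differed by -0.43 (SE 0.56) with overlap, and from -0.80 to 0.056 with single arrays left out. Of 8 pan-epithelial markers 7 were above background, but Epcam was not on any array; of 7 luminal markers 6 were, Calb1 not. The luminal markers summed, on the linear scale, to 8177 to 16010 in Control and 11961 to 20019 in CKO. The summed linear signal of the pan-epithelial markers was 40958 to 46031 in Control and 38788 to 46326 in CKO. Stroma markers (7 of 10 above background; Hand2 and Postn on no array) summed to 2148 to 2834 in Control and to 6247, 2712 and 1063 on CKO arrays D, E and F. Most of this sum is Dcn, whose log2 signal was 12.36 on D, 10.73 on E and 9.50 on F, so it does not follow the dimmer markers. On array E Col1a1 (7.14, against 4.81 to 5.31 in Control), Thy1 (8.29, against 6.23 to 6.92) and Vim (7.65, against 6.15 to 6.61) lay above all Control arrays, as they did on D. Array D had the highest summed stroma signal and array F the lowest, by a sum that is mostly Dcn. Endothelium markers (6 of 8 above background; Tie1 on no array) summed to 288 to 341 in Control and 218 to 820 in CKO, and leukocyte markers (3 of 8; Ptprc, Cd3e and Itgam on no array) to 380 to 595 and 312 to 659. Smooth muscle markers (3 of 7 above background; Myh11, Tagln and Cnn1 on no array) summed to 286 to 2206 in Control and 291 to 974 in CKO, glandular markers (5 of 7) to 556 to 4926 and 553 to 4681, and erythroid markers (3 of 4; Slc4a1 on no array) to 2307 to 9371 and 3115 to 14078. Adipocyte markers (2 of 8; Plin1, Cidec, Retn, Fabp4 and Cfd on no array) summed to 238 to 403 and 311 to 404. The glandular sum was highest on Control A (4926) and CKO E (4681), and the endothelium sum on CKO E (820). The part of other cell types in the differences of the pathway was not tested.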

How the data were processed

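The authors deposited scanner tables with, per the file headers, a bead-averaged intensity (linear, not normalised), a detection p-value and a count of beads for each of 45281 probes. Their deposited series table holds background-subtracted, quantile-normalised linear intensity values, as its values show. The sources used here do not name the software. Median raw signal was 79.7 to 87.6, beads per probe 39 to 42 in the median. The number of arrays limits the precision.

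Scanner intensities went through neqc (limma 3.58.1, R 4.3.3): normexp correction, with the negative controls estimated from the detection p-values, an offset of 16, quantile normalisation and log2. The offset shrinks differences of dim genes. Probes with a detection p-value under 0.05 on at least 3 arrays were kept (17291), named by accession or symbol through RefSeq (GRCm38.p6), and the brightest stood for its gene. CKO was compared with Control by lmFit and eBayes, two-sided, Benjamini-Hochberg adjusted over 11940 genes, threshold 0.05. The fit was tested on simulated data. The genes, lists and tests were chosen with earlier results of these data known. Named were all listed pathway genes, and in each neighbouring list up to 3 without overlap, by smallest p. Values of single arrays were printed for pathway genes without overlap, for Acadm and for pathway genes that differed by 0.5 or more. Some of those of Acadl, Acad8, Acsl3 and Acsl4 were printed outside this rule, after they were seen. With an array left out, the filter and the brightest probe were chosen anew. Alternatives were other background corrections, normalisations, filters, probe means, variance models and leaving out each array.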

Additional observations from a re-analysis of the deposited data

How the results depend on the processing

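No gene of the pathway passed limma's adjusted p under any of the 16 alternatives; besides Acadm the lowest adjusted p was 0.36, for Acot2 with array weights. CKO lay wholly below Control for 3 genes with all arrays and for 5 with median scaling. With single arrays left out it did so for 4 to 7 genes. These counts include Acadm and are 12%, 20% and 16% to 28% of the 25 genes. Of all genes, 5.01%, 8.76% and 7.75% to 13.5% lay wholly below in the same settings, so the background rose as well. CKO lay wholly above for 0 to 2 genes with single arrays left out, where 8.51% to 11.5% of all genes lay so. The median difference with Acadm included, whose low values chose the pathway, stayed negative. It ran from -0.22 with median scaling to -0.093 with no background correction, and leaving out single arrays gave -0.23 to -0.097. Without Acadm, an alternative chosen after seeing the data, the median was -0.13; it ran from -0.20 to -0.090 with all arrays and from -0.22 to -0.082 with 1 left out. Of the 25 genes, 10 kept their sign throughout (Acadm, Acads, Acadsb, Acad10, Hadhb, Acaa2, Cpt2, Decr1, Acot2 and Ech1). Signs changed with median scaling for Acad9 (-0.075), Etfb (-0.011) and Ppard (-0.063), with cyclic loess for Acad9 (-0.00090), with the mean of probes for Acadvl (0.11), Echs1 (0.11) and Crat (-0.033), and with array weights for Crat (-0.18), Dci (0.11) and Ppard (-0.16). With single arrays left out, signs changed for Acaa1a (-0.33 to 0.077), Acad8 (-0.75 to 0.17), Acad9 (-0.083 to 0.16), Acadl (-0.63 to 0.097), Acadvl (-0.24 to 0.35), Acsl3 (-0.92 to 0.017), Acsl4 (-0.55 to 0.23), Acsl5 (-0.26 to 0.037), Crat (-0.14 to 0.39), Dci (-0.096 to 0.043), Etfa (-0.12 to 0.080), Etfb (-0.0070 to 0.23), Etfdh (-0.27 to 0.17) and Ppard (-0.054 to 0.092). For Acadvl the brightest probe was another one without A (0.35) and without B (0.30). With its probe kept, chosen after seeing the data, the difference ran from -0.24 to 0.021 and was -0.058 without B, and 1 gene rather than 2 lay wholly above without A, and 0 rather than 1 without B. The cause of the other sign changes was not tested. With single arrays left out the medians of neighbouring lists changed sign for peroxisomal oxidation (-0.25 to 0.045), PPAR targets (-0.18 to 0.091), branched-chain breakdown (-0.20 to 0.0042) and general mitochondrial genes (-0.029 to 0.087). Array weights turned the median of peroxisomal oxidation (0.025), branched-chain breakdown (0.017) and general mitochondrial genes (-0.022), and median scaling that of the last (-0.052). Signal over background limits the dim genes, such as Acot2, with means of 5.84 in Control and 5.64 in CKO. No paired analysis was possible because the labels state no pairing of the samples.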
